A study of Mus musculus with 11 samples.

Results

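The hepatocyte identity transcription factors described here are the 9 genes Hnf4a, Foxa1, Foxa2, Foxa3, Cebpa, Cebpb, Prox1, Onecut1 and Nr5a2, chosen by name as factors that establish or keep the hepatocyte state. They were found on the arrays through the RefSeq accession that the scanner files give for each probe, which yielded 10 probes, 2 for Hnf4a and 1 for each other gene, out of 36060 probes and 16637 named genes tested. Liver RNA was hybridised 5 days after an intraperitoneal injection of AAV8 vectors into male C57Bl6/J mice, 8 weeks old at injection. The 3 GFP mice received 6e+11 viral genomes of the GFP vector, the 3 NICD1 and the 3 NICD2 mice received 3e+11 of their own vector with 3e+11 of the GFP vector, and the 2 NICD1&2 mice received both NICD vectors at 3e+11 each, without GFP vector. The name NICD stands for the intracellular domain that is cut from a Notch receptor, here Notch1 or Notch2. Expression of the NICD genes was driven by a CMV promoter, which is not restricted to hepatocytes, and every mouse carried AAV8 at the same total dose.

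Hepatocyte identity rests on a network of transcription factors that bind each other's regulatory regions and those of liver genes. Hnf4a is the nuclear receptor at its centre, the Foxa factors open chromatin ahead of other factors, Cebpa and Cebpb are leucine zipper factors of metabolism and the acute phase, Prox1 and Onecut1 are homeodomain factors of liver development, and Nr5a2 is a nuclear receptor of bile acid and cholesterol genes. A cleaved Notch receptor binds the DNA-binding protein RBPJ and switches on repressors such as Hes1, and in the liver this pathway is known for directing cells toward the bile duct.

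The upstream sequences below show the letters these factors and Notch effectors are known to read, as far as they occur next to the factors' own start sites. RefSeq windows on GRCm38.p6, from 250 bases before to 50 after a start site, were at hand for all 9 genes, 14 windows in all. The motifs searched on both strands were TGGGAA for RBPJ, TGTTTAC for Foxa, CAAAGTCC for Hnf4a, TTGCNNAA for Cebp and CACNAG, the N box of Hes repressors. The RBPJ letters occurred in 1 of the 14 windows, a window of Prox1, against 25.6% of all 32851 promoter windows. The Foxa letters also occurred in 1, that of Foxa1, against 3.65%, the Cebp letters in 1, a window of Nr5a2, against 10.8%, and the Hnf4a letters in 0, against 1.42%. The N box occurred in 6 windows, of Cebpa, Foxa2, Foxa3, Hnf4a and Prox1, against 42.5%. A match is a description of the letters and not a site of binding. Shown are the 250 bases before the downstream of the 2 Hnf4a start sites, with the N box in capitals, before the Foxa1 start site, with the Foxa motif in capitals, and before 1 of the 2 Prox1 start sites, with the RBPJ motif in capitals.
Hnf4a, chr2:163546905-163547154, plus strand: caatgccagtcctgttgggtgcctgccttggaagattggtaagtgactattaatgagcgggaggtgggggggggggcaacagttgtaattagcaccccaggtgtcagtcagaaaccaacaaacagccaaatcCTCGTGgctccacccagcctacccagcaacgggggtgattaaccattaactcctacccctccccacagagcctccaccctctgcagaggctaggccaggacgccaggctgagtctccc
Foxa1, chr12:57546112-57546361, minus strand: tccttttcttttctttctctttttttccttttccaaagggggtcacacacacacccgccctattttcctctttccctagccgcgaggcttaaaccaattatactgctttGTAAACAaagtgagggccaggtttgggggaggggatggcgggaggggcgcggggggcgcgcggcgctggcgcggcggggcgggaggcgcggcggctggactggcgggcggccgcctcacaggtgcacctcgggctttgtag
Prox1, chr1:190169516-190169765, minus strand: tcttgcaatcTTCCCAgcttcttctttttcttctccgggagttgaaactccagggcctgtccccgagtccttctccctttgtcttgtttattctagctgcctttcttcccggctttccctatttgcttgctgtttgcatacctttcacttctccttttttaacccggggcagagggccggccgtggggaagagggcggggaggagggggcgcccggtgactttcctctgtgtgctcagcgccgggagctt

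All 10 probes were well above background on all 11 arrays, by the flag that the scanner software sets for each spot. Values are on the log2 scale, with the 75th percentile of each array set to 0, and a value of 1 more means a signal 2 times as high. The levels of different genes are not set against each other here, since each probe has its own response. From 57.0% to 62.02% of the spots on an array, controls left out, were well above background. Each of the 4 groups had arrays on both slides: slide 2 held NICD1 2, NICD1 3, GFP 3, NICD2 3 and NICD1&2 2, and slide 1 the remaining 6. In differences within slide 1, NICD1 and NICD1&2 are thus a single array each, and within slide 2, GFP, NICD2 and NICD1&2 are. The median over all tested probes was 0.12 higher in the NICD1&2 group than in the GFP group on the log2 scale. The differences and intervals given below for that group include this shift. Less the shift, its differences from GFP were 0.24 for Foxa3, 0.30 for Foxa2, 0.38 for Cebpb and 0.56 for Prox1. They were 0.02 and 0.20 for the brighter and dimmer Hnf4a probe, -0.03 for Foxa1, -0.18 for Cebpa, -0.34 for Nr5a2 and -0.79 for Onecut1. GFP 1 had the lowest median of all arrays. In whole liver, fewer cells of a type and less RNA per cell cannot be told apart. No source used here ties the replicates to litters or days, so the p-values measure the spread between these samples.

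None of the 10 probes differed between any groups at a Benjamini-Hochberg adjusted p under 0.05 in limma, in any of the 6 comparisons. Among all 36060 tested probes the share called was 0.00832% for NICD1 against GFP, 0.0527% for NICD2 against GFP and 0.0998% for NICD1&2 against GFP. It was 0.00277% for NICD1 against NICD2, 0.0139% for NICD1&2 against NICD1 and 0.00277% for NICD1&2 against NICD2. With so few calls in the background, a count of 0 among 10 probes says little about these factors. At an unadjusted p under 0.05, 2 of the 10 probes passed in each of the NICD1, NICD2 and NICD1&2 comparisons with GFP, where 5.48%, 6.81% and 14.8% of all probes did. For NICD1 against NICD2 the count was 0 of 10, against 3.74% of all probes. By the study's own definition of an altered gene, an unadjusted P under 0.15 with a fold change over 1.8, 0 of the 10 probes were altered in any comparison with GFP. That definition took in 2.22% of all probes with NICD1, 1.98% with NICD2 and 6.23% where both vectors were given.

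**Figure D1:**
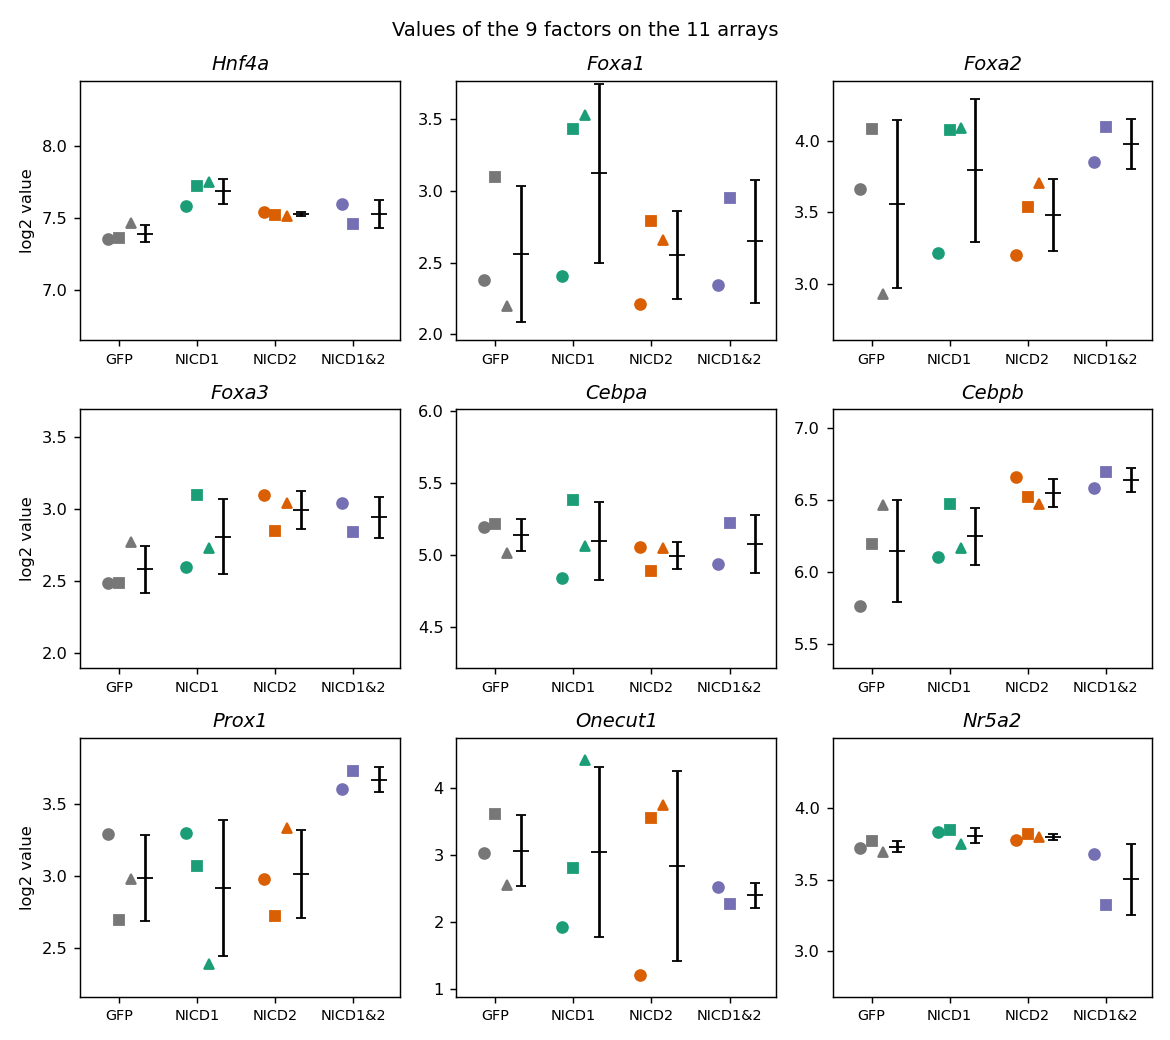
The log2 value of each factor on each array (circle, square and triangle for replicates 1, 2 and 3) is plotted by group, with the group mean and SD as a bar beside the points. The scale is stretched to each panel. Onecut1 spans the widest range, from 1.20 to 4.43, and Hnf4a stays between 7.35 and 7.75.

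Hnf4a, the nuclear receptor that many hepatocyte genes depend on, was higher with NICD1 than with GFP on both of its probes, without passing the test across all probes. On the probe with the higher mean (A_55_P1959633), the GFP arrays read 7.35, 7.36 and 7.46, the NICD1 arrays 7.58, 7.72 and 7.75, the NICD2 arrays 7.54, 7.52 and 7.51, and the NICD1&2 arrays 7.60 and 7.46. All NICD1 and all NICD2 arrays lay above all GFP arrays, and the NICD1 arrays also lay above the NICD2 arrays. The difference of NICD1 from GFP was 0.29 on the log2 scale (standard error 0.09, 95% interval 0.09 to 0.49, limma adjusted p = 0.781), a fold change of 1.23. Exact two-sided permutation of the arrays gave p = 0.1, the smallest that 3 against 3 allows. The difference was 0.23 within slide 1 and 0.27 within slide 2.

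The second Hnf4a probe (A_52_P69656) read 0.55, 0.54 and 0.32 with GFP, 0.59, 0.80 and 1.18 with NICD1, 0.61, 0.68 and 0.65 with NICD2, and 0.92 and 0.66 with NICD1&2. Its NICD1 arrays again lay above all GFP arrays, by 0.39 in the mean (95% interval 0.04 to 0.74, limma adjusted p = 0.883), with 0.04 within slide 1 and 0.67 within slide 2. With NICD2 the differences from GFP were 0.14 on the first probe (95% interval -0.06 to 0.34) and 0.18 on the second (95% interval -0.17 to 0.53). With NICD1&2 the first probe differed by 0.14 (95% interval -0.09 to 0.36), close to the shift of all probes and below 0 after quantile normalisation, at -0.05, and after normexp background correction, at -0.25. The second probe differed by 0.32 there (95% interval -0.07 to 0.71). NICD1 against NICD2 gave 0.16 on the first probe (95% interval -0.04 to 0.36, limma adjusted p = 0.999998). By group means the order on the first probe was NICD1, NICD2, NICD1&2 and GFP, and the NICD2 and NICD1&2 means of 7.53 did not differ beyond their spread.

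The arrays of 2 groups did not overlap for 2 of the 10 probes in NICD1 against GFP, both of Hnf4a, while 12.4% of all tested probes were separated in this way. For NICD2 against GFP it was 5 of 10, namely both Hnf4a probes, Foxa3, Cebpb and Nr5a2, against 13.4% of all probes. For NICD1&2 against GFP it was 6 of 10 against 34.5%. That comparison has a smaller group of 2 and a shift of all probes, and what raised its background was not tested. For NICD1 against NICD2 it was 2 of 10, Hnf4a and Cebpb, against 9.31%. Exact permutation gave p = 0.1 for each probe separated in NICD2 against GFP. In NICD1&2 against GFP it gave 0.2 for Foxa3, Cebpb, Prox1 and Onecut1, and 0.1 for Nr5a2 and the second Hnf4a probe. The smallest p that 2 against 3 allows is 0.1. The 3 comparisons with GFP share the same GFP arrays, so these counts are not independent of each other.

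The 3 Foxa genes encode winged-helix factors that bind closed chromatin. Foxa1 read 2.38, 3.10 and 2.20 with GFP, 2.40, 3.43 and 3.52 with NICD1, 2.21, 2.79 and 2.66 with NICD2, and 2.34 and 2.95 with NICD1&2. All groups overlapped, since each held an array at 2.40 or below and an array at 2.66 or above. The difference of NICD1 from GFP was 0.56, the largest of the 9 described probes in that comparison, but its 95% interval ran from -0.24 to 1.36 (limma adjusted p = 0.914). It was -0.33 within slide 1 and 1.28 within slide 2. Without NICD1 1 the difference was 0.92 and met the study's definition of an altered gene, and without NICD1 3 it was 0.36. NICD2 differed from GFP by -0.01 (95% interval -0.80 to 0.79). NICD1&2 differed by 0.09 (95% interval -0.80 to 0.98), with a value below 0 after quantile normalisation (-0.003) and after normexp background correction (-0.12).

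Foxa2, which acts beside Foxa1 in liver development and in the fasting response, read 3.66, 4.08 and 2.93 with GFP and 3.22, 4.07 and 4.08 with NICD1. Its NICD2 arrays read 3.21, 3.53 and 3.70, and its NICD1&2 arrays 3.85 and 4.10. The GFP arrays alone spanned most of the range. The differences from GFP were 0.23 with NICD1 (95% interval -0.50 to 0.97), -0.08 with NICD2 (95% interval -0.81 to 0.65) and 0.42 with NICD1&2 (95% interval -0.40 to 1.24). Without GFP 3 the NICD1 value turned to -0.08 and the NICD1&2 value was 0.10. As for Foxa1, the slides differed, with -0.66 within slide 1 and 1.15 within slide 2 for NICD1 against GFP.

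Foxa3, which is active in adult liver beside the other Foxa factors, read 2.49, 2.48 and 2.77 with GFP and 2.60, 3.10 and 2.73 with NICD1. It read 3.09, 2.85 and 3.04 with NICD2 and 3.04 and 2.84 with NICD1&2. All 5 arrays that received the NICD2 vector lay above all 3 GFP arrays. NICD2 differed from GFP by 0.41 (standard error 0.15, 95% interval 0.07 to 0.76, limma adjusted p = 0.647), a fold change of 1.33, with 0.48 within slide 1 and 0.27 within slide 2. NICD1&2 differed by 0.36 (95% interval -0.03 to 0.75, limma adjusted p = 0.358), with 0.56 within slide 1 and 0.07 within slide 2. For NICD1 the difference was 0.23 (95% interval -0.12 to 0.57), and NICD1 against NICD2 gave -0.19 (95% interval -0.53 to 0.16). Without NICD1 2 the former was 0.08 and the latter -0.33, and over all arrays left out in turn the latter ran from -0.33 to -0.08.

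**Figure D2:**
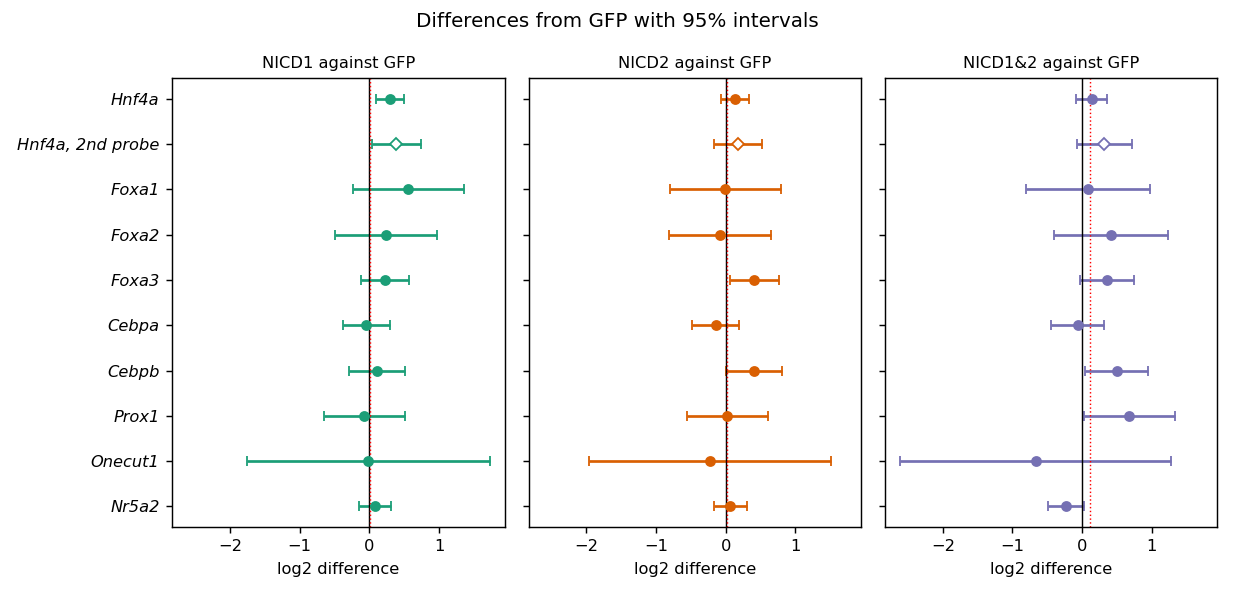
Differences from the GFP group on the log2 scale are plotted for each probe of the 9 factors, with bars for the 95% intervals of limma, the open diamond for the second Hnf4a probe and the dotted line for the median of all tested probes. With NICD1 both Hnf4a intervals lie above 0, with NICD2 those of Foxa3 and Cebpb, and with NICD1&2 those of Cebpb and Prox1, and none passed at an adjusted p under 0.05.

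Cebpa, the leucine zipper factor that restrains hepatocyte division and drives glycogen and urea cycle genes, showed no difference between groups beyond its spread. It read 5.19, 5.22 and 5.01 with GFP, 4.84, 5.38 and 5.07 with NICD1, 5.05, 4.89 and 5.05 with NICD2, and 4.94 and 5.22 with NICD1&2, and every group overlapped every other. The differences from GFP were -0.04 with NICD1 (95% interval -0.38 to 0.29), -0.14 with NICD2 (95% interval -0.48 to 0.19) and -0.06 with NICD1&2 (95% interval -0.44 to 0.32). The sign for NICD1 turned to 0.02 after normexp background correction. The 3 intervals together run from a fold change of 0.715 to 1.24.

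Cebpb, the relative of Cebpa that takes part in the acute phase and in gluconeogenesis, read 5.76, 6.20 and 6.47 with GFP and 6.10, 6.47 and 6.16 with NICD1. It read 6.66, 6.52 and 6.47 with NICD2 and 6.58 and 6.70 with NICD1&2. The NICD2 and NICD1&2 arrays lay above the GFP arrays, though NICD2 3 and GFP 3 both rounded to 6.47, and the NICD1 arrays overlapped the GFP arrays. NICD2 differed from GFP by 0.41 (standard error 0.18, 95% interval 0.01 to 0.81, limma adjusted p = 0.724) and NICD1&2 by 0.50 (standard error 0.20, 95% interval 0.05 to 0.95, limma adjusted p = 0.308). The NICD2 difference was 0.61 within slide 1 and 0.01 within slide 2, and the NICD1&2 difference 0.60 and 0.23. Without GFP 1, the array with the lowest Cebpb value, they were 0.22 and 0.31. NICD1 differed from GFP by 0.11 (95% interval -0.30 to 0.51) and from NICD2 by -0.30 (95% interval -0.71 to 0.10, limma adjusted p = 0.999998).

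Prox1, a homeodomain factor that binds Hnf4a and Nr5a2 and dampens their activity, had its highest values in the NICD1&2 group, without passing the test across all probes. It read 3.29, 2.69 and 2.98 with GFP, 3.30, 3.07 and 2.39 with NICD1, 2.98, 2.72 and 3.33 with NICD2, and 3.61 and 3.73 with NICD1&2. Both NICD1&2 arrays lay above the other 9 arrays. The difference from GFP was 0.68 (standard error 0.29, 95% interval 0.03 to 1.33, limma adjusted p = 0.324), a fold change of 1.60, or 0.56 above the shift of all probes. NICD1&2 differed from NICD1 by 0.75 (95% interval 0.10 to 1.40, limma adjusted p = 0.377) and from NICD2 by 0.66 (95% interval 0.00 to 1.31, limma adjusted p = 0.561). The difference from GFP was 0.61 within slide 1 and 0.75 within slide 2, and leaving out any array left it between 0.53 and 0.83. The difference from NICD1 was 0.49 without NICD1 3, and 0.94 without NICD1 1, where it met the study's definition of an altered gene (limma adjusted p = 0.553). With NICD1 alone the difference from GFP was -0.07 (95% interval -0.65 to 0.51). With NICD2 alone it was 0.02 (95% interval -0.56 to 0.61), and -0.0005 after quantile normalisation.

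Nr5a2, a nuclear receptor that binds the promoters of bile acid synthesis genes, had its lowest values in the same group, also without passing the test. It read 3.72, 3.77 and 3.69 with GFP, 3.83, 3.84 and 3.75 with NICD1, 3.77, 3.81 and 3.80 with NICD2, and 3.68 and 3.33 with NICD1&2. Both NICD1&2 arrays were the lowest of the 11, NICD1&2 1 by a narrow margin and NICD1&2 2 clearly. The difference from GFP was -0.23 (standard error 0.12, 95% interval -0.49 to 0.03, limma adjusted p = 0.380), with -0.07 within slide 1 and -0.37 within slide 2. Without NICD1&2 2 it was -0.05, with a single array left in the group. NICD1&2 differed from NICD1 by -0.30 (95% interval -0.57 to -0.04, limma adjusted p = 0.375) and from NICD2 by -0.29 (95% interval -0.55 to -0.03, limma adjusted p = 0.561), and without NICD1&2 2 by -0.13 and -0.12. The single vectors differed from GFP by 0.08 (NICD1, 95% interval -0.16 to 0.31) and 0.07 (NICD2, 95% interval -0.17 to 0.30).

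Onecut1, a cut-homeodomain factor of bile duct development that stays on in adult hepatocytes, varied more within groups than between them. It read 3.02, 3.61 and 2.55 with GFP, 1.92, 2.80 and 4.43 with NICD1, 1.20, 3.56 and 3.74 with NICD2, and 2.52 and 2.27 with NICD1&2. The NICD1&2 arrays lay just below the GFP arrays, and the NICD1 and NICD2 arrays held both the highest and the lowest values of the 11. The differences from GFP were -0.01 with NICD1 (95% interval -1.75 to 1.73), -0.23 with NICD2 (95% interval -1.97 to 1.51) and -0.67 with NICD1&2 (95% interval -2.61 to 1.28). The NICD1 value turned to 0.09 after normexp background correction. Leaving out single arrays moved it between -0.70 and 0.55, and its interval as a fold change ran from 0.297 to 3.31.

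**Figure D3:**
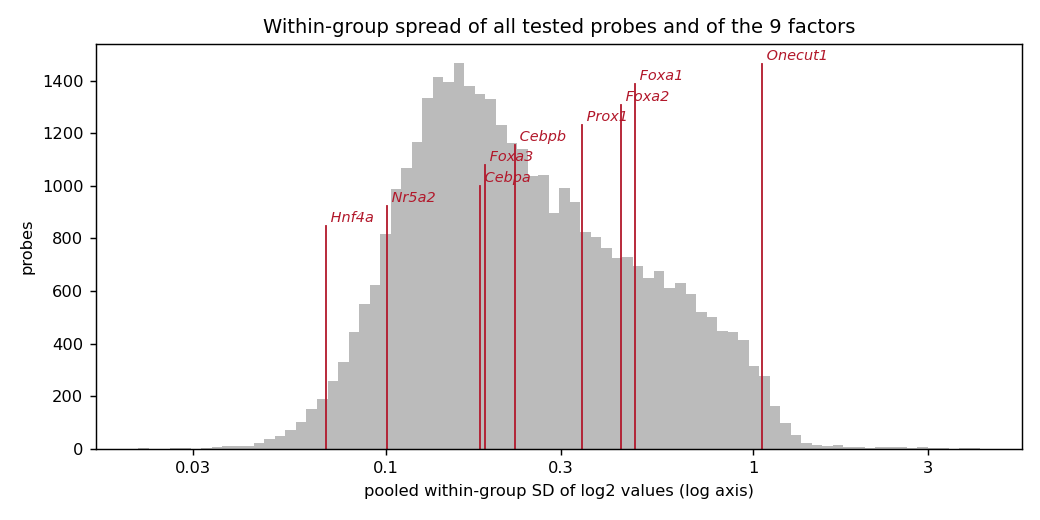
The histogram shows the pooled within-group SD of the log2 values for all 36060 tested probes on a log axis, with the 9 factors marked by red lines. Hnf4a, drawn from its first probe (0.07), and Nr5a2 (0.10) lie at the low end and Onecut1 (1.06) at the high end.

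The 9 factors differed widely in how much they varied between mice of a group. The pooled within-group SD was 0.07 for the first probe of Hnf4a, 0.10 for Nr5a2, 0.18 for Cebpa, 0.19 for Foxa3, 0.23 for Cebpb, 0.34 for Prox1, 0.44 for Foxa2, 0.48 for Foxa1 and 1.06 for Onecut1, beside a median of 0.22 over all tested probes. A larger SD than that of the first Hnf4a probe was found in 98.2% of tested probes, while the second, dimmer Hnf4a probe had an SD of 0.19, exceeded by 57.2%. The SD of Onecut1 was exceeded by 1.68%. The SD of Foxa1 was exceeded by 19.6% of probes and that of Foxa2 by 22.3%.

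Pairs of the 9 factors were compared over the 11 arrays. Of 36 pairs, 3 had a Pearson r above 0.6, the median r was 0.02, and 0 pairs passed at a permutation p under 0.05 after Benjamini-Hochberg adjustment. Foxa1 and Foxa2 had r = 0.80 (permutation p = 0.00395, adjusted p = 0.0711) and Spearman's rho = 0.80 (permutation p = 0.00469, adjusted p = 0.169). Their r was 0.90 after the group means were removed, 0.77 without NICD1 2 and NICD1 3, 0.64 within the 6 arrays of slide 1 and 0.88 within the 5 arrays of slide 2. Foxa3 and Cebpb also had r = 0.80 (permutation p = 0.00236, adjusted p = 0.0711), with rho = 0.71 (permutation p = 0.0176, adjusted p = 0.318). Here r was 0.66 after removal of the group means, 0.69 without GFP 1 and GFP 2, 0.90 within slide 1 and 0.33 within slide 2. Foxa1 and Onecut1 followed with r = 0.63 (permutation p = 0.0400, adjusted p = 0.420) and rho = 0.57 (permutation p = 0.0698, adjusted p = 0.629), and r was 0.58 without NICD1 2 and NICD1 3, 0.82 within slide 1 and 0.43 within slide 2. Both genes of a pair were read from the same RNA and the same labelling of each liver, and the part of array quality in these values was not tested.

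The genes most like each factor over the 11 arrays were picked as the 3 with the highest Pearson r among the 16636 other named genes, and such a search returns high values for any gene. For Cebpb they were Ptger2 (0.96), Cebpd (0.95) and Mknk2 (0.95). Cebpd is a further member of the same leucine zipper family, and its r with Cebpb stayed at 0.93 after the group means were removed and was 0.99 within slide 1 and 0.81 within slide 2. For Foxa1 they were Eaf2 (0.93), Tspyl2 (0.93) and Hhex (0.91), the last a homeobox factor of early liver. Foxa2 was matched by Zfp217 (0.90), Vegfb (0.89) and Vmn2r48 (0.88), and Foxa3 by Rhobtb1 (0.91), Herpud1 (0.90) and Tmc7 (0.89). Hnf4a was matched by Zdhhc2 (0.92), Ids (0.90) and Adnp2 (0.89), and Cebpa by Dmtn (0.88), Prr16 (0.87) and Chrm4 (0.84). The closest to Prox1 were Ovca2 (0.93), Psmg3 (0.92) and Triap1 (0.90), to Onecut1 Ap5z1 (0.94), Taf7l (0.93) and Serpina4-ps1 (0.92), and to Nr5a2 Fndc3a (0.95), Itih2 (0.95) and Hmcn1 (0.95). Without both NICD1&2 arrays, the 2 farthest from the median of Nr5a2, r was 0.75 for Fndc3a, 0.50 for Itih2 and 0.62 for Hmcn1, and within slide 1 it was 0.51, 0.48 and 0.79. Of the genes named here, Dmtn was well above background on 4 of the 11 arrays, Vmn2r48 and Chrm4 on 5 and Hmcn1 on 6, so their values are in part those of a dim probe.

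**Figure D4:**
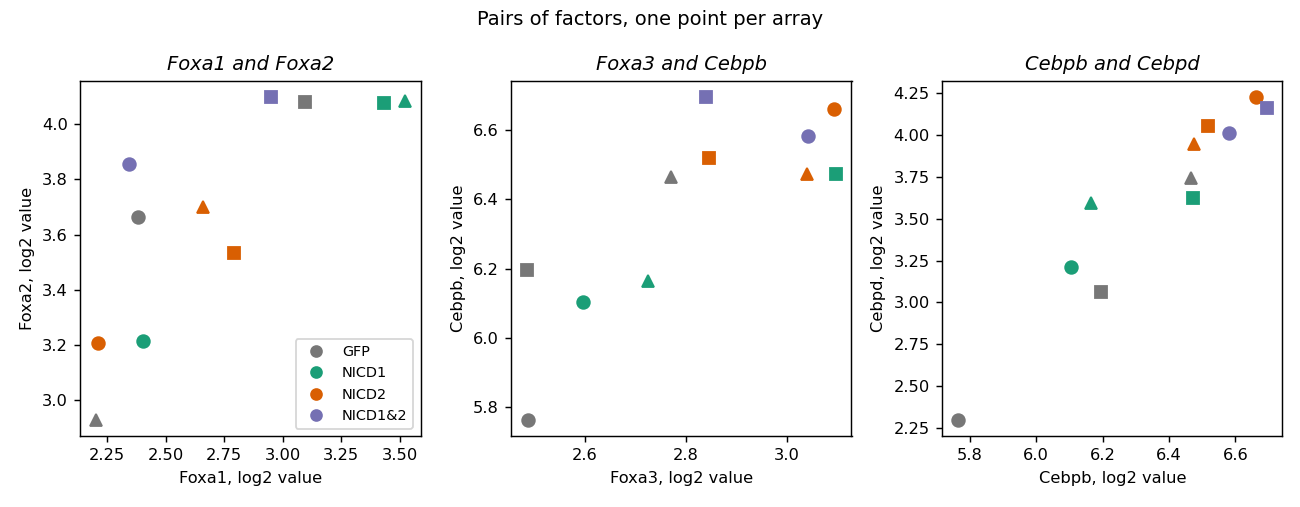
Each point is 1 array, coloured by group and shaped by replicate number, and both axes are log2 values. Foxa1 and Foxa2 run along a rising line (r = 0.80) with all groups mixed, and for Foxa3 with Cebpb (r = 0.80) and Cebpb with Cebpd (r = 0.95) the GFP 1 array sits at the low end of both axes.

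Of 32 other liver transcription factors, 31 were tested, and 0 were called in any of the 3 comparisons with GFP. Their median log2 difference was 0.02 with NICD1, 0.05 with NICD2 and 0.11 with NICD1&2, beside 0.00, 0.02 and 0.12 over all named genes. Cebpd, which takes part in the acute phase, read 2.30, 3.06 and 3.74 with GFP, 4.23, 4.06 and 3.95 with NICD2 and 4.01 and 4.16 with NICD1&2. It met the study's definition in both groups, with differences from GFP of 1.04 (limma adjusted p = 0.480) and 1.05 (limma adjusted p = 0.249). Without GFP 1, these were 0.67 and 0.69, under a fold change of 1.8. Tbx3, a T-box factor of liver growth, met it with NICD2 in the other direction, at -1.12 (limma adjusted p = 0.480), with GFP arrays at 4.70, 3.41 and 3.74 and NICD2 arrays at 2.66, 2.82 and 3.02. Without GFP 1, it was -0.74, also under that fold change.

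Lists of target genes were read for Hnf4a, the Foxa factors, the Cebp factors, Nr5a2 and Onecut1, and gave 0 calls in the comparisons with GFP. Of 15 Hnf4a targets, 4 were higher with NICD1, 9 with NICD2 and 10 with NICD1&2, with medians of -0.06, 0.00 and 0.13. Over all named genes the share that was higher was 50.5%, 55.2% and 66.7%. The 8 Foxa targets had medians of -0.11, -0.02 and 0.03, and the 7 Nr5a2 targets medians of 0.13, 0.16 and 0.16 with NICD1, NICD2 and NICD1&2. For the 12 Cebp targets the medians were -0.12, 0.04 and 0.17. Saa1 and Saa2, acute phase genes in that list, were altered by the study's definition in the NICD1 group, both at -1.53 (limma adjusted p = 0.781 and 0.801), and GFP 1 held their highest values. Without GFP 1 they were at -0.94 and -0.92. Lcn2, an acute phase gene of the same list, differed by -1.33 on the log2 scale between NICD1 and NICD2 (limma adjusted p = 0.999998), and its NICD1 arrays lay below all NICD2 arrays. The 7 Onecut1 targets, which include Hnf4a and Foxa2 themselves, had medians of -0.02, 0.00 and 0.20.

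Markers of hepatocytes and of bile duct cells were read beside the factors. Of 14 hepatocyte markers, the symbol Tf matched no probe, since the table of gene names uses Trf, and the other 13 were tested and were well above background on every array, and 0 were called. Of the 13, 2 were higher than GFP with NICD1, 5 with NICD2 and 9 with NICD1&2, with median differences of -0.15, -0.04 and 0.12. Alb, the main plasma protein of hepatocytes, differed from GFP by -0.15, -0.07 and 0.16 with NICD1, NICD2 and NICD1&2, and Ttr, another secreted protein, by -0.13, 0.00 and 0.20. All 11 bile duct markers were tested, and 1 of them, Spp1, a secreted phosphoprotein of bile duct cells, was called. It rose by 1.81 with NICD2 (limma adjusted p = 0.0270) and by 2.23 with NICD1&2 (limma adjusted p = 0.0111), and differed by 1.71 with NICD1 (limma adjusted p = 0.0964). Of the 11 markers, 10 were higher than GFP with NICD1, 8 with NICD2 and 9 with NICD1&2, with median differences of 0.30, 0.17 and 0.32, against 0.00, 0.02 and 0.12 over all named genes. The summed linear level of the 11 markers was 11.9 to 15.8 on the GFP arrays, 28.4 to 36.1 with NICD1, 27.1 to 36.6 with NICD2 and 37.2 to 44.96 with NICD1&2. Without Spp1 the sum was 5.62 to 6.56 with GFP, 6.271 to 7.0005 with NICD1, 5.41 to 6.98 with NICD2 and 5.88 to 6.06 with NICD1&2. Sox9, a factor of bile duct cells and a Notch target, differed by 0.23, 0.84 and 1.16 (limma adjusted p = 0.938, 0.580 and 0.197), the last of which was 0.62 without NICD1&2 1. Muc1, a mucin, differed by 0.88, 0.85 and 0.65, and by 0.42, 0.39 and 0.19 without GFP 1. Epcam, an adhesion molecule of bile duct cells, differed by 0.69, 0.48 and 0.74, and by 0.28, 0.07 and 0.34 without GFP 1. Krt19, the keratin that defines bile duct cells, differed by 0.07, 0.09 and 0.29 (limma adjusted p = 0.981, 0.988 and 0.571), and Cftr was well above background on 0 of the 2 NICD1&2 arrays. The part of bile duct cells in the values of the 9 factors was not tested.

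As a check of the vectors, Hes1, a repressor switched on by Notch, read -1.77, -2.64 and -3.05 with GFP, -3.12, -1.84 and -2.59 with NICD1, -1.41, -1.05 and -0.08 with NICD2, and -1.10 and -1.15 with NICD1&2. The differences from GFP were -0.03, 1.64 and 1.36 (limma adjusted p = 0.994, 0.419 and 0.280). Nrarp, a feedback regulator that Notch switches on, had a signal well above background on 2 of 3 NICD1 arrays, on all NICD2 and NICD1&2 arrays and on 0 of 3 GFP arrays. Each GFP array was then taken at the dimmest signal that its scanner set well above background, or at Nrarp's own signal if brighter. Against that level, Nrarp was 5.87-fold higher with NICD2 and 8.92-fold with NICD1&2. On the deposited values, Nrarp differed from GFP by 3.53 and 4.14 on the log2 scale (limma adjusted p = 0.104 and 0.0720). With NICD1 it read -5.19 to -3.83 beside -6.92 to -4.60 with GFP (limma adjusted p = 0.839), and the groups overlapped. The probes of Notch1 and Notch2 cannot serve as a check, since the files do not say whether they lie within the part of the transcript that the vectors carry. Notch1 ranged from 0.31 to 0.70 with GFP, from 0.57 to 0.95 with NICD1 and from -0.38 to 0.64 with NICD2, and read 1.11 and 0.32 with NICD1&2. Notch2 ranged from 1.66 to 1.86, from 1.98 to 2.10 and from 1.86 to 2.06, and read 1.78 and 1.75 with NICD1&2, within the range of the GFP arrays.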

How the data were processed

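Liver RNA of 11 mice was hybridised in 1 colour to Agilent arrays. The authors' Feature Extraction software (version 11.5.1.1) gave processed signals, deposited as intensities with the background of each spot removed, and a flag for signals well above background, which was used here as a yes or no score of detection. The deposited table of the series holds log2 values; set against the deposited intensities, 99.5% of probes on each array equalled log2 of the processed signal less 1 constant per array, to within 0.0001, with the 75th percentile at 0. How the remaining probes, which have several spots, were merged is not given in the sources used here. The methods and the labels name different RNA kits.

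Genes were named through the RefSeq accession of each probe, against a table on GRCm38.p6, and array coordinates were not used. Of 56605 probes, 36060 were well above background on at least 2 of 11 arrays and were tested, 24044 of them with a gene name. Group means were estimated from the 11 arrays together in limma 3.58.1 (lmFit, then eBayes; R 4.3.3), with Benjamini-Hochberg adjustment over all tested probes and a threshold of 0.05. The scripts were tested on simulated data. A gene was described by its probe with the highest mean. Permutation tests for pairs of genes drew 100000 resamples, and single differences were permuted exactly. All 9 factors and all their probes are described, and the genes of other lists are named where they were called, or met the study's definition with no overlap of the groups, with Alb, Ttr and the Notch genes as checks. Some results are not reported here. The members, lists and tests were chosen with earlier results of these data known. The alternatives were values computed from the processed signals, quantile normalisation, normexp background correction (offset 50) with quantile normalisation, no filter, detection on all 11 arrays, fits that hold only the groups compared, the replicate number or the slide as a block, each array left out, and the second probe of Hnf4a. Values of the listed genes, and of the factors in NICD1&2 against NICD1 and NICD2, with single arrays left out were added after seeing the data. The number of arrays limits the precision.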

Additional observations from a re-analysis of the deposited data

How the results depend on the processing

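Under all 19 alternatives run, 0 of the 10 probes of the 9 factors were called in any of the 6 comparisons. Of 499 single values of the factors over 36 results, 463 kept their direction, 36 turned, and 0 passed the adjusted threshold, with a lowest adjusted p of 0.0986. The number of arrays and the wide intervals limit what could be seen, above all for Onecut1, Foxa1 and Foxa2. The causes were not tested.

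Quantile normalisation turned Prox1 with NICD2 to -0.000507, and with NICD1&2 Hnf4a to -0.0537 and Foxa1 to -0.00292. With normexp, Cebpa was 0.0216 and Onecut1 0.0893 with NICD1, and Hnf4a -0.25 and Foxa1 -0.12 with NICD1&2. With single arrays left out, the NICD1 differences from GFP ranged from -0.0806 to 0.52 for Foxa2, -0.19 to 0.0825 for Cebpa, -0.0840 to 0.27 for Cebpb, -0.26 to 0.19 for Prox1 and -0.70 to 0.55 for Onecut1. With NICD2 they ranged from -0.18 to 0.26 for Foxa1, -0.39 to 0.18 for Foxa2, -0.14 to 0.18 for Prox1 and -0.68 to 0.59 for Onecut1. With NICD1&2 they ranged from -0.22 to 0.39 for Foxa1 and -0.20 to 0.0787 for Cebpa. For NICD1 against NICD2 they ranged from -0.0422 to 0.23 for Cebpa, -0.28 to 0.17 for Prox1, -0.60 to 0.78 for Onecut1 and -0.00866 to 0.0408 for Nr5a2. Leaving out arrays left 0 to 1 of the 10 probes altered by the study's definition with NICD1, the 1 being Foxa1 without NICD1 1. That array left out also made Foxa1 altered between NICD1 and NICD2, at 0.92, and Prox1 between NICD1&2 and NICD1, at 0.94, and without NICD2 1 Onecut1 was altered between NICD1&2 and NICD2, at -1.26.

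Among all tested probes, the calls for NICD2 against GFP (19) were 72 with normexp, 9 without a filter, 45 with a filter of all 11 arrays, 12 with the slide as a block and 5 with the compared groups alone. Those for NICD1&2 against GFP (36) were 336 with normexp, 23 without a filter, 112 with the stricter filter and 0 with the compared groups alone. Those for NICD1 against GFP (3) were 0 with the compared groups alone. For NICD1 against NICD2 (1) they were 2 with quantile normalisation, 5 with normexp and 0 with the compared groups alone. For NICD1&2 against NICD1 (5) they were 3 with quantile normalisation, 49 with normexp, 1 without a filter, 10 with the stricter filter or the slide as a block and 0 with the compared groups alone. For NICD1&2 against NICD2 (1) they were 0 with normexp, with either other filter, with the slide as a block and with the compared groups alone. Leaving out single arrays gave 2 to 3 calls for NICD1 against GFP, 10 to 16 for NICD2, 4 to 224 for NICD1&2, 1 to 2 for NICD1 against NICD2, 0 to 204 for NICD1&2 against NICD1 and 0 to 124 for NICD1&2 against NICD2. The highest counts of the last and of NICD1&2 against GFP and NICD1 came without NICD1&2 1, and the lowest of each without NICD1&2 2. Either leaves 1 array in that group, which is then assumed to vary like the other groups. For NICD1&2 against NICD2 the same lowest count also came without NICD2 1 and without NICD2 2.

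The probes altered by the study's definition numbered 802, 715 and 2248 against GFP. They were 72, 99 and 171 with normexp, 2060, 1796 and 5082 without a filter, and 120, 225 and 581 with the stricter filter. With single arrays left out they ranged from 510 to 2022, 829 to 1522 and 1376 to 3700, with the highest of each without GFP 2 and the lowest of the first and the last without GFP 1.

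Whether replicate numbers pair the mice was checked after removal of the group means. Arrays that share a number form 15 pairs, and their r ran from -0.41 to 0.17, with a median of 0.04. For the 30 pairs that do not share a number, r ran from -0.29 to 0.46, with a median of 0.01. The values of a group sum to 0 once its mean is removed, so these r are not independent and cannot settle a pairing. No source used here says that the numbers pair the mice, and the numbers were not taken as a pairing. With the replicate block the calls were 12 for NICD2 against GFP, 0 for NICD1&2 against NICD1 and 0 for NICD1&2 against NICD2, and 0 of the 10 probes were called.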

Other observations

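Other cell types of the liver were measured in the same RNA. Of 7 macrophage markers, 0 were higher than GFP with NICD1, 1 with NICD2 and 3 with NICD1&2, with medians of -0.26, -0.23 and -0.009 on the log2 scale and 0 called by limma. Over all named genes, 50.5%, 55.2% and 66.7% were higher, with medians of 0.00, 0.02 and 0.12. Marco, a scavenger receptor of resident macrophages, met the study's definition between NICD1&2 and NICD1, at 1.40 (limma adjusted p = 0.367), and between NICD1&2 and NICD2, at 1.21 (limma adjusted p = 0.561). Without NICD1&2 1 these were 0.63 and 0.45, under a fold change of 1.8. Against GFP it met the definition with NICD1, at -0.89 (limma adjusted p = 0.903), with overlapping groups, and came to between -0.82 and -0.59, under that fold change, without GFP 1, GFP 3, NICD1 1 or NICD1 2. Of 7 endothelial markers, Lyve1, a hyaluronan receptor of sinusoidal cells, met that definition against GFP with NICD2, at 0.86 (limma adjusted p = 0.285), and with NICD1&2, at 0.93 (limma adjusted p = 0.162). Its fold change was under 1.8 with NICD2 without GFP 1 (1.73), GFP 2 (1.65) or NICD2 3 (1.72), and with NICD1&2 without GFP 2 (1.75) or NICD1&2 2 (1.79). The 7 stellate cell markers had medians of 0.10, 0.22 and 0.06 with NICD1, NICD2 and NICD1&2. The 7 lymphocyte markers had medians of -0.21, -0.13 and -0.03. Of 10 exocrine pancreas markers, 5 were well above background on 0 arrays, and the other 5 had medians of -0.13, -0.12 and 0.31.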
